A study of Mus musculus with 6 samples.

Results

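The genes studied were 10 genes of prostaglandin synthesis and reception, chosen by symbol, and every probe that carries 1 of these symbols was used. They were the cyclooxygenases *Ptgs1* and *Ptgs2*, the terminal synthases *Ptges*, *Ptges2* and *Ptgis*, and the receptors *Ptger1*, *Ptger2*, *Ptger3*, *Ptger4* and *Ptgfr*. Of the 31508 gene symbols on the array, 9 were members, with 15 probes between them. *Ptger1* was matched to no probe under its symbol or its older names and was not analysed here.

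The samples were tubes of cortical bone, cut from the tibia and femur shafts of C57BL6 mice aged 3 months. The marrow was flushed out and the surface digested to remove cells, but RNA of neutrophil and osteoclast markers was still detected, as given below. After a night in culture, bone tubes received PTH 1-34 at 250 nM for 24 hours, and control tubes received none. Each group was read on 3 arrays. Both groups shared strain, age, digestion and culture. Each RNA preparation pooled the bones of several mice, so the spread between animals was not measured. The labels do not say that the 3 arrays of a group came from separate cultures, so the p-values measure the spread between these arrays, which may be technical.

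Prostaglandins are short-range lipid signals. Phospholipases release arachidonic acid from membranes, the cyclooxygenases turn it into an unstable intermediate, and terminal synthases convert that into prostaglandin E2, prostacyclin and the other products, which act on G-protein-coupled receptors. In bone, prostaglandin E2 is made by cells of the osteoblast lineage, is released by osteocytes under load, and affects both bone formation and resorption.

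The RefSeq promoter table for build GRCm38.p6 had an entry for 8 of the 10 genes, with none for *Ptgis* or *Ptger1*. The promoters of *Ptgs2* and *Ptges* are printed because these encode the inducible pair of enzymes that make prostaglandin E2, and because PTH signals through cAMP, whose response element was among the motifs searched. Each run covers 250 bases before and 30 after the annotated start, 5′ to 3′ on the gene's own strand, and capitals mark the motif matches.
Ptgs2, chr1:150099781-150100060, plus strand: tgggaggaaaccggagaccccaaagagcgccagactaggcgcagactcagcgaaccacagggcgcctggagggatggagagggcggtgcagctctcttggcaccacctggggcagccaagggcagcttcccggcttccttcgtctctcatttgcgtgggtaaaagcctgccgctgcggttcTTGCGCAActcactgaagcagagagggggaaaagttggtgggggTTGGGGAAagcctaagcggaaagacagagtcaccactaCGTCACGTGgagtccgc
Ptges, chr2:30903268-30903547, minus strand: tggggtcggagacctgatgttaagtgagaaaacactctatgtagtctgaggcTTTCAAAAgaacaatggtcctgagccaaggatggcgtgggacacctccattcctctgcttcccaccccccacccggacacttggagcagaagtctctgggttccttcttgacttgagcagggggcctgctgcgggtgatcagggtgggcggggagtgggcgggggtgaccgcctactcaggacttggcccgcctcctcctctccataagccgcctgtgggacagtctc

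Both strands were searched for the full cAMP response element TGACGTCA, its shorter core TGACG, the E-box CACGTG, the AP-1 motif TGANTCA, the C/EBP motif TTNNGNAA and the TATA box TATAAA. The *Ptgs2* run held the core TGACG on the minus strand, 14 bases after the start, where it overlaps an E-box 17 bases after the start, and it held C/EBP matches 69 and 25 bases before the start. The *Ptges* run held 1 C/EBP match, 198 bases before the start. Over windows of the same length, 19.9% of 32851 RefSeq promoters held the core TGACG, 6.79% the E-box and 39.3% the C/EBP motif, so a match is a description of these letters and nothing more. *Ptges2* held an E-box 77 bases before its start and a C/EBP match 48 bases before it, and none of the 8 promoters held the full cAMP response element.

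RNA was measured on Illumina mouse bead arrays with 45281 probes, and the deposited signals are linear and not normalized. A probe was called detected on an array where its detection p, the chance of so high a signal from the array's negative controls, was under 0.05. Between 15504 and 17374 probes were detected per array, and the median signal per array ran from 111 to 129. Of the 45281 probes, 16214 were detected on at least 3 of the 6 arrays and were tested. Among the markers of the labelled cells, 11 of 13 osteoblast and osteocyte genes were tested, and *Runx2* and *Fgf23* were detected on no array.

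Of the 15 member probes, 7 probes of 5 genes were tested, and these 5 were the enzymes. Prostacyclin synthase *Ptgis* fell with PTH, and *Ptgs1*, *Ptgs2*, *Ptges* and *Ptges2* did not pass the test. The receptors could not be compared, since their signals lay at background in both groups. So 1 of the 5 tested genes was called at an adjusted p under 0.05, where 1.61% of all probes tested were called, and that 1 was lower with PTH, as were 0.993% of all probes tested.

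**Figure D1:**
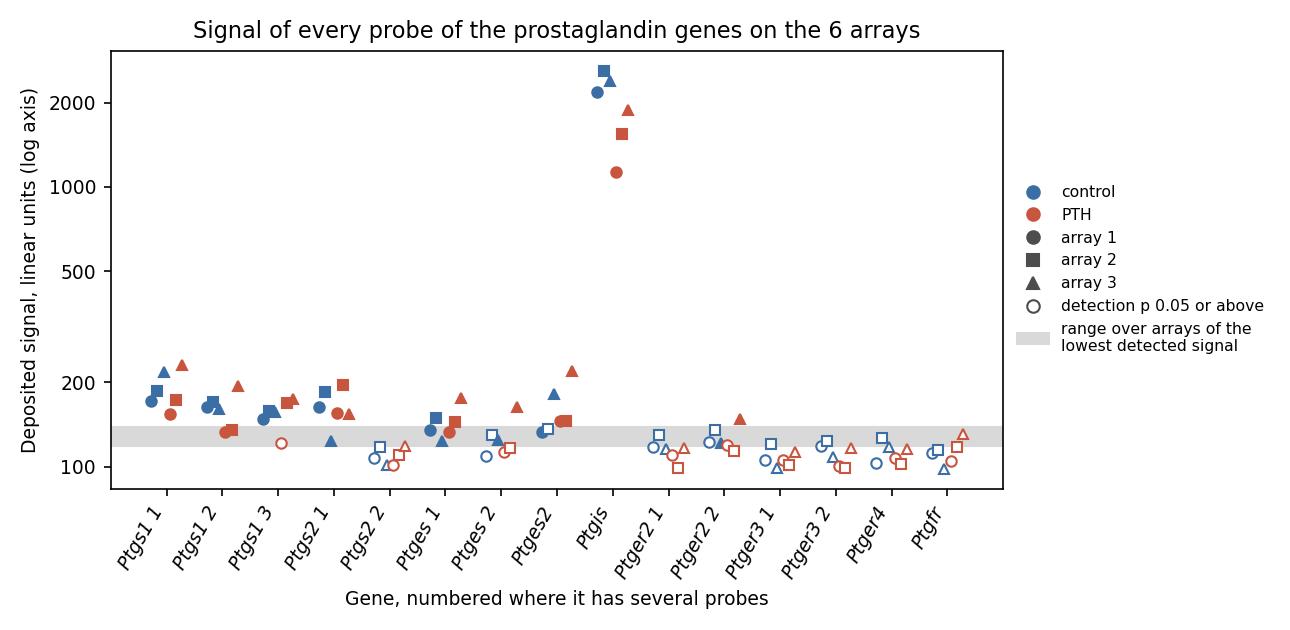
Deposited signal (linear units, log axis) of each of the 15 member probes on the 3 control and 3 PTH arrays. Open points were not detected, and the grey band spans the lowest detected signal of each array, 118.6 to 138.8. *Ptgis* lies far above the band on all 6 arrays, the other enzymes lie near or in the band, and the receptors lie in or under it except for *Ptger2* on PTH array 3.

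*Ptgis* encodes prostacyclin synthase, the enzyme that makes prostacyclin from the cyclooxygenase product. Its deposited signals were 2176, 2604 and 2400 on control arrays 1, 2 and 3, against 1132, 1551 and 1887 on PTH arrays 1, 2 and 3. After normalization the log2 signals were 11.33, 11.29 and 11.18 in the controls and 10.33, 10.47 and 10.33 with PTH. All 3 PTH arrays lay below all 3 controls on both scales, and on the log2 scale the gap between the groups was wider than the spread within either.

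The mean log2 signal of *Ptgis* was 11.27 ± 0.08 (SD, n = 3) in the controls and 10.37 ± 0.08 (SD, n = 3) with PTH. The log2 difference was -0.89 (SE 0.12), with a 95% confidence interval from -1.17 to -0.62. On the linear scale the signal fell by 46.2%, with an interval from -55.6% to -34.8%. By limma the adjusted p was 0.0142 (Benjamini-Hochberg, all probes tested), and *Ptgis* was number 93 of 16214 by p. The adjusted p was 0.316 when arrays were scaled to 1 median in place of quantile normalization, where the log2 difference was -0.76, or -0.87 relative to an upward shift of 0.11 in the median of all probes. It also rose above 0.05 without control 1, control 2, PTH 1 or PTH 2, at 0.0796, 0.0706, 0.065 and 0.0507.

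**Figure D2:**
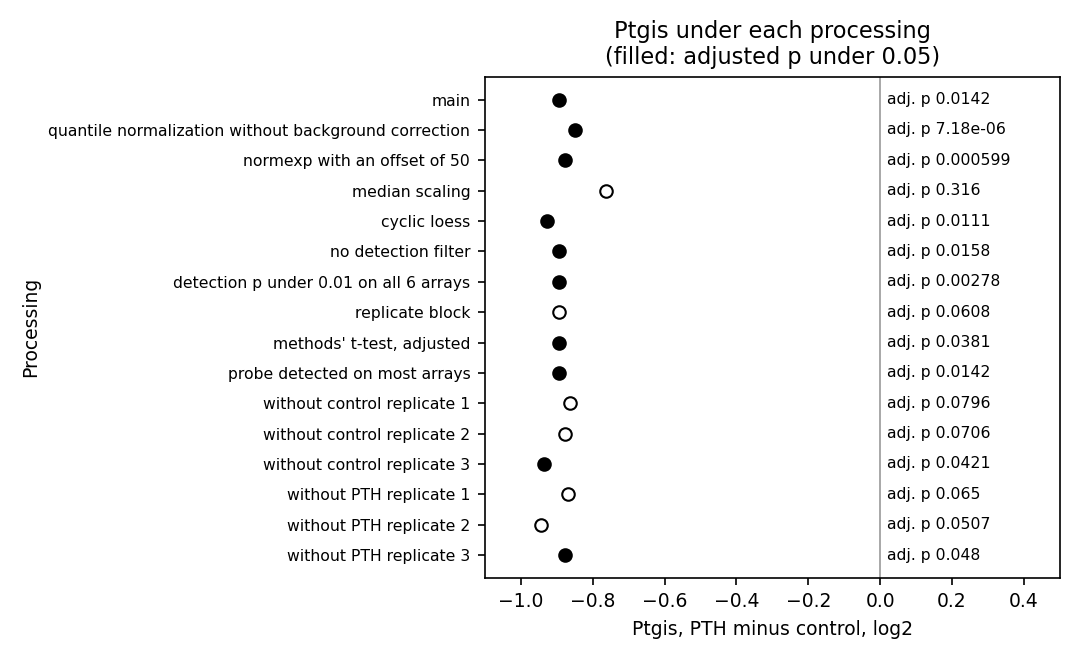
Log2 difference of *Ptgis*, PTH minus control (x axis), under each processing (y axis), with its adjusted p by limma, or by the methods' t-test where so named. All 16 values lie between -0.94 and -0.76, and filled points have an adjusted p under 0.05.

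Marker lists of several cell types moved over the same arrays. Of 11 tested osteoblast and osteocyte markers, 3 fell, 0 rose and 10 lay below 0, with a median log2 difference of -0.81, and the summed signal of the 13 listed ran from 34250 to 36217 in the controls and from 21589 to 23378 with PTH. *Col1a1* gave the largest part of the osteoblast and osteocyte sum and was not called (-0.54, adjusted p = 0.0798 by limma). Of 7 tested neutrophil markers, 4 fell, 0 rose and all 7 lay below 0, with a median of -0.72. The summed signal of that list ran from 51794 to 52611 in the controls and from 33391 to 37992 with PTH. *S100a8* and *S100a9* made up most of it, and neither was called (-0.43 and -0.59, adjusted p = 0.192 and 0.144 by limma). Of 5 tested osteoclast markers, 3 rose and 0 fell, with a median of 0.84 and summed signals of 11826 to 13304 against 16065 to 20578. Most of that sum was *Ctsk*, which was not called (0.36, adjusted p = 0.328 by limma), and 3 of the 8 listed were detected on no array. These 3 lists had separate ranges in the groups, beside a median of 0.00 over all probes tested, of which 1.61% were called. So had the megakaryocyte and platelet list, with 0 of 6 tested markers called, all 6 below 0, a median of -0.39 and summed signals of 3331 to 3620 against 2634 to 2744. The mast cell list, with 5 of 8 markers detected on no array, had a median of -0.45 over 2 tested markers, 0 called, and sums of 529 to 622 against 373 to 518. The macrophage list overlapped, with 0 of 7 tested markers called, a median of -0.04 and sums of 12250 to 15331 against 12502 to 15186.

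Prostacyclin synthase is known from the vessel wall, so markers of its cells were read beside it. None of the 8 tested endothelial markers passed the test, 5 lay below 0 with a median log2 difference of -0.33, and their summed signal ran from 2057 to 2277 in the controls and from 1976 to 2223 with PTH. None of the 4 tested smooth muscle and pericyte markers passed, with 3 below 0, a median of -0.14 and summed signals of 5087 to 5500 against 4654 to 4907, and the defining *Myh11* and *Cnn1* were detected on no array. The ranges overlapped for endothelium and did not for smooth muscle and pericytes. Most of the smooth muscle and pericyte sum was *Acta2*, with a log2 difference of -0.12 (adjusted p = 0.698 by limma). *Rgs5* of the same list lay above 0, at 0.49 (adjusted p = 0.198 by limma), and was detected on 0 control and 3 PTH arrays. In bulk bone, fewer cells of a type and less RNA per cell cannot be told apart, and the part of these lists in the fall of *Ptgis* was not tested.

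The pattern of *Ptgis* over the 6 arrays was set beside that of 11978 genes by Pearson correlation, as a description. The most alike were *Lcn2* (r = 0.999), *Panx3* (r = 0.997), *Cd177* (r = 0.997), *Cdr2* (r = 0.996) and *Rgs16* (r = 0.996). All of these values share the 6 arrays and their split into groups. *Lcn2* and *Cd177* are known from neutrophils and *Panx3*, a channel protein, from the osteoblast lineage. Their log2 differences with PTH were -0.84 for *Lcn2*, -1.84 for *Panx3*, -0.77 for *Cd177*, -0.29 for *Cdr2* and -1.48 for *Rgs16*, and *Cdr2* alone among these 5 missed the threshold, with an adjusted p of 0.281 by limma.

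The cyclooxygenases *Ptgs1* and *Ptgs2* sat close to the array background. *Ptgs1*, the form present in most resting tissues, had 3 probes, all tested. Its brightest probe read 172, 186 and 219 in the 3 controls, compared with 154, 173 and 232 after PTH. The groups overlapped, and the arrays numbered 3 were highest in both. After normalization the log2 values were 6.53, 6.35 and 6.97 against 6.29, 6.37 and 6.57, a difference of -0.21 (SE 0.18, adjusted p = 0.673 by limma) that was -0.03 without control 3 and -0.34 without control 2.

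The second *Ptgs1* probe read 164, 171 and 161 in the controls and 133, 135 and 194 with PTH. Its log2 difference was -0.43 (SE 0.19), with an adjusted p of 0.339 by limma. The third read 148, 158 and 156 against 121, 169 and 174, was detected on 2 of the 3 PTH arrays, and differed by -0.18 on the log2 scale (SE 0.28, adjusted p = 0.831 by limma). All 3 probes of *Ptgs1* lay below 0 and none passed the test.

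*Ptgs2*, the cyclooxygenase that is induced by hormones, cytokines and load, had 1 probe above background. That probe read 163, 184 and 124 across the controls, and 156, 195 and 154 across the PTH arrays. On the log2 scale this was 6.33, 6.33 and 5.15 against 6.33, 6.71 and 5.43. The arrays numbered 3 were the lowest in both groups, and the groups overlapped.

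The log2 difference of *Ptgs2* was 0.22 (SE 0.41), with an interval from -0.73 to 1.16 that spans a fold of 0.604 to 2.23, and an adjusted p of 0.863 by limma. Neither a fall nor a doubling of *Ptgs2* RNA lay outside that interval, and the sign turned without control 3 (-0.18) and without PTH 2 (-0.06). The other *Ptgs2* probe was detected on no array.

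The synthases of prostaglandin E2 were also dim. *Ptges*, the inducible microsomal synthase that works with *Ptgs2*, read 136, 150 and 124 in the controls, against 133, 145 and 175 with PTH by its brighter probe. After normalization the log2 values were 5.50, 5.45 and 5.15 against 5.67, 5.76 and 5.81, so the normalized groups did not overlap while the deposited signals did. The log2 difference was 0.38 (SE 0.14), with an interval from 0.05 to 0.70, an unadjusted p of 0.0278 by limma and an adjusted p of 0.266. Its other probe was detected on 1 control and 1 PTH array and was not tested.

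*Ptges2*, a second membrane-associated synthase, read 133, 136 and 181 in the 3 controls, compared with 146, 146 and 220 after PTH. It was detected on 2 of 3 controls and on all 3 PTH arrays, and the arrays numbered 3 were highest in both groups. The log2 values were 5.40, 4.96 and 6.50 against 6.07, 5.79 and 6.44, and the groups overlapped. The log2 difference was 0.48 (SE 0.37), with an interval from -0.38 to 1.35 and an adjusted p of 0.617 by limma. It was 0.16 without control 2, 0.29 without PTH 3 and 0.91 without control 3.

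By the brightest probe, 2 of the 5 tested genes, *Ptgis* and *Ptges*, had normalized groups that did not overlap, where 20.8% of all probes tested did not. The log2 differences of the 5 genes ran from -0.89 to 0.48 with a median of 0.22, beside 0.00 over all probes tested.

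**Figure D3:**
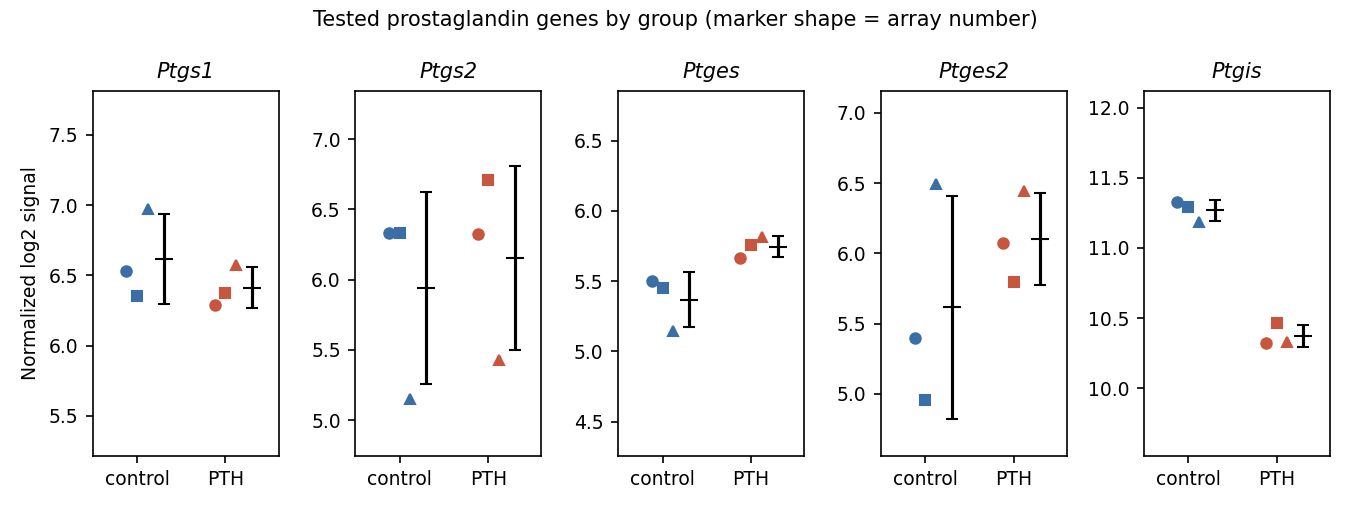
Normalized log2 signal (y axis) of the brightest probe of each tested member in the control and PTH groups, 1 point per array, with the mean and SD (n = 3) beside them. Every panel spans the same height in log2 units. *Ptgis* and *Ptges* have groups that do not overlap, and the arrays numbered 3, drawn as triangles, lie lowest for *Ptgs2* and highest for *Ptgs1* and *Ptges2* in both groups.

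The receptors carry the signal into the cell: *Ptger2* and *Ptger4* raise cAMP, *Ptger3* mostly lowers it, and *Ptgfr*, the receptor for prostaglandin F, acts through calcium. The 4 receptors had 6 probes, and of their 36 values 2 were detected. Both came from 1 *Ptger2* probe, which read 122, 136 and 122 across the controls, and 119, 114 and 148 across the PTH arrays and was detected on control 3 and PTH 3. The other *Ptger2* probe read 117, 129 and 115 against 110, 98.8 and 116, and was detected on no array.

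*Ptger4* read 103, 126 and 117 in the controls, against 107, 103 and 116 with PTH. *Ptgfr* read 112, 115 and 98.3 against 104, 117 and 131. The *Ptger3* probes read 106, 120 and 99.1 against 106, 101 and 113, and 119, 124 and 108 against 101, 98.5 and 117. All 36 values lay between 98.3 and 148, while the lowest detected signal of each array was between 118.6 and 138.8, so no fold is given and a difference in receptor RNA was not detectable here. When all 45281 probes were tested, the lowest adjusted p by limma among the 8 member probes otherwise left out was 0.569.

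The other genes of the pathway were read from 57 listed genes, of which 26 were tested. By limma 1 of them rose, 2 fell and 23 did not pass, with a median log2 difference of 0.01, where 1.61% of all probes tested were called. Those that changed were *Akr1c18*, *Hpgd* and *Alox5ap*, whose normalized groups did not overlap, as was so for 7 of the 26 and for 20.8% of all probes tested. *Hpgd*, the dehydrogenase that starts the breakdown of prostaglandins, read 509, 543 and 648 in the 3 controls, compared with 298, 336 and 462 after PTH. Its log2 signal fell from 8.99 ± 0.17 to 7.98 ± 0.06 (SD, n = 3), a difference of -1.01 (SE 0.13, adjusted p = 0.0135 by limma). The adjusted p of *Hpgd* was 0.159 under median scaling, 0.0657 by the methods' t-test, and 0.075, 0.0551 and 0.0641 without control 1, PTH 1 or PTH 2.

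*Akr1c18*, an aldo-keto reductase best known for breaking down progesterone, read 137, 151 and 141 across the controls, and 176, 218 and 280 across the PTH arrays. Its log2 signal rose from 5.59 ± 0.08 to 6.92 ± 0.15 (SD, n = 3), a fold of 2.51 (adjusted p = 0.0039 by limma), and it passed under all 15 alternatives, with a log2 difference of 1.33 that was 0.92 with an offset of 50 and 0.59 without background correction. *Alox5ap*, which hands arachidonic acid to the lipoxygenase that makes leukotrienes and is known from myeloid cells, read 1548, 1799 and 1938 against 925, 1285 and 1676, so its deposited signals overlapped. Its log2 signal fell from 10.82 ± 0.06 to 10.12 ± 0.09 (SD, n = 3), a difference of -0.70 (SE 0.12, adjusted p = 0.0339 by limma). It missed 0.05 under median scaling (0.746), by the methods' t-test (0.054) and without any 1 of the 6 arrays (0.0731 to 0.131). Over the same arrays 4 of 7 tested neutrophil markers fell, 0 of 7 tested macrophage markers were called and 3 of 5 tested osteoclast markers rose. The part of these lists in the fall of *Alox5ap* was not tested.

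Upstream of the cyclooxygenases, none of the 7 tested of 21 genes of arachidonic acid release and its regulation passed the test. The smallest p was that of *Pla2g4b* (log2 difference 0.49, adjusted p = 0.149 by limma), followed by *Pla2g15* (-0.24, adjusted p = 0.425) and *Anxa1* (0.19, adjusted p = 0.632). The cytosolic phospholipase *Pla2g4a* was detected on no array.

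Among the 9 other synthases, 7 were tested and *Akr1c18* alone passed. The prostaglandin D synthase *Hpgds* had a log2 difference of -0.34 (adjusted p = 0.619 by limma) and the thromboxane synthase *Tbxas1* one of -0.18 (adjusted p = 0.632). Of 7 transport and breakdown genes 6 were tested, and beside *Hpgd* the transporters *Slco2a1*, which takes prostaglandins up, and *Abcc4*, which exports them, had log2 differences of 0.58 (adjusted p = 0.248) and 0.28 (adjusted p = 0.336). Neither passed.

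None of the 5 genes listed as other prostanoid receptors or their regulators was tested. *Ptgir*, the receptor for prostacyclin, was detected on 1 control and 0 PTH arrays, so the receptor for the product of *Ptgis* could not be compared either. Of 15 leukotriene and other lipoxygenase genes 6 were tested, and beside *Alox5ap* the smallest p belonged to *Alox12* (log2 difference -0.40, adjusted p = 0.318 by limma) and *Ltb4r1* (-0.42, adjusted p = 0.527).

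**Figure D4:**
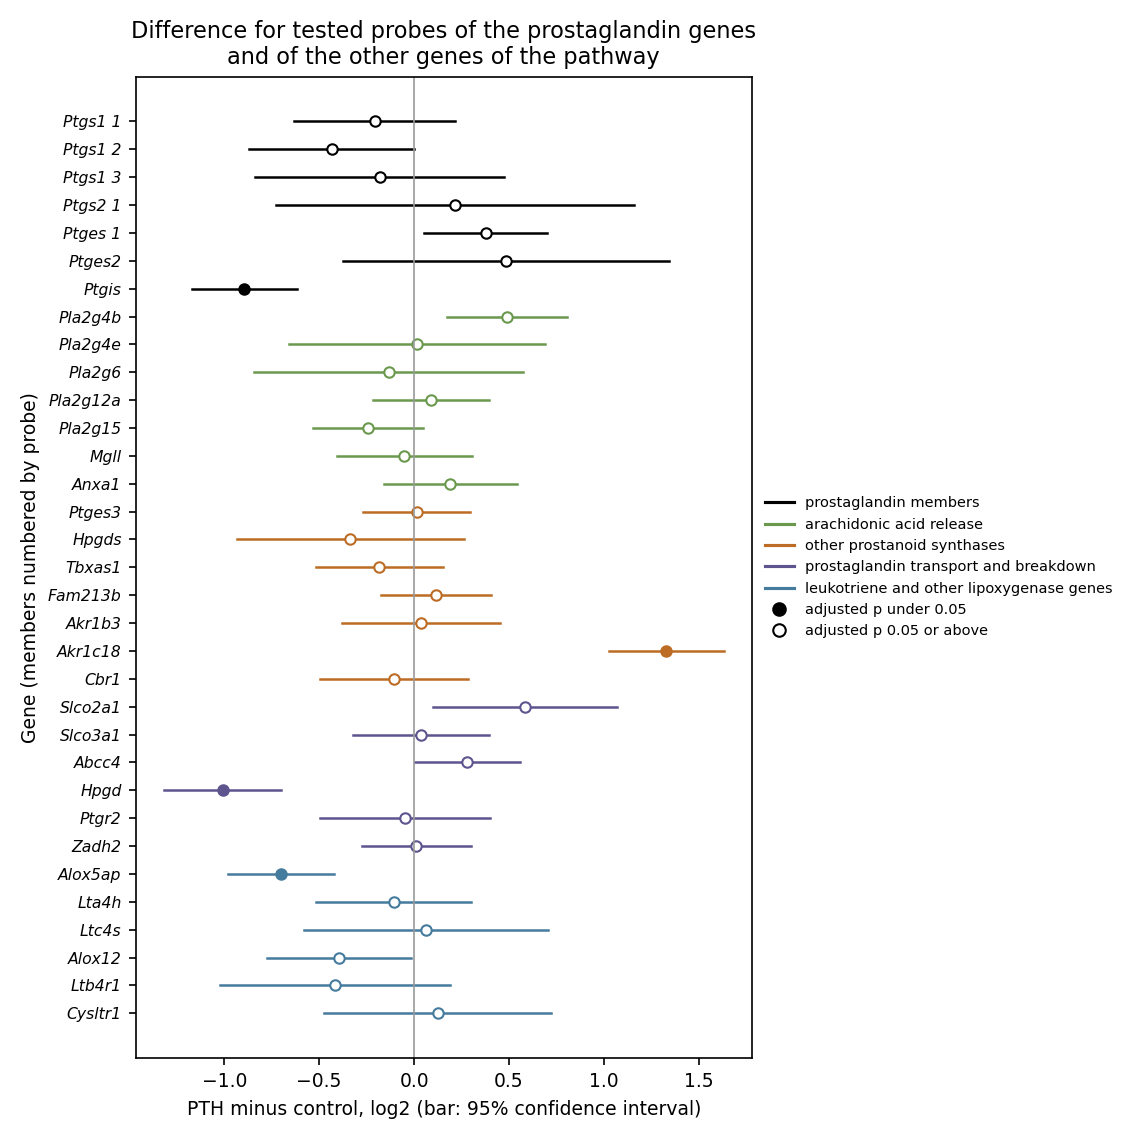
Log2 difference, PTH minus control (x axis), with its 95% confidence interval for the 7 tested member probes and the 26 tested genes of the pathway lists. Filled points had an adjusted p under 0.05 by limma: *Ptgis* (-0.89) among the members, and *Akr1c18* (1.33), *Hpgd* (-1.01) and *Alox5ap* (-0.70) among the others.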

How the data were processed

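Total RNA of control and PTH bone tubes was hybridised to Illumina mouse bead arrays, with 3 arrays per group. The authors deposited 1 table of non-normalized linear signal intensity per probe, with a detection p-value per probe and array; GenomeStudio is the tool named in the submitters' processing notes. The study's methods name quantile normalization and a differential score; values made that way were not used here. Detection columns share 1 name and were tied to the signal column before them, which their order against the signals bore out. Groups came from the labels.

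Signals were background-corrected by normexp from the detection p-values (limma 3.58.1 in R 4.3.3, offset 16), quantile normalized and put on the log2 scale. Subtracting background enlarges the folds of dim probes and a larger offset shrinks them, and quantile normalization removes any shift shared by all probes. Probes entered the test if at least 3 of the 6 arrays had a detection p under 0.05. Linear models with moderated variance gave PTH minus control, two-sided; p-values were adjusted by Benjamini-Hochberg across the 16214 probes, and calls were made at 0.05. A gene was counted by its brightest probe; no probe's level was set against another's. The number of arrays limits the precision: an exact permutation of 3 against 3 cannot go below p = 0.1.

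The members, pathway lists and marker lists were chosen with earlier results of these data known. Named genes were all members, pathway genes that passed, the 3 of each pathway list with the smallest p otherwise, and the 5 genes most like *Ptgis*. *Pla2g4a*, *Ptgir*, *Runx2*, *Fgf23*, *Myh11* and *Cnn1*, all untested, were named outside this rule after their values were seen. So were *Acta2*, *Rgs5*, *Ctsk*, *Col1a1*, *S100a8* and *S100a9*, which were tested. Of the 57 pathway genes, 45 matched by symbol and 12 by an older symbol in the RefSeq gene table. Promoters came from the RefSeq table for GRCm38.p6, shortened to 30 bases after the start.

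The fit was tested on simulated data. Recovery of strong changes was incomplete for probes near background. The first version of the simulation, and then a rebuilt one, missed the criterion set for all changed probes, which was then replaced by one for probes clear of background. *Ptgs1*, *Ptgs2*, *Ptges* and *Ptges2* lie near background, so a missed call there says little. Alternatives were other background correction, normalization, detection filters, probe choice, the replicate number as a block, the t-test that the study's general statistics name for comparisons of 2 groups (the methods' t-test), and leaving out each array. No slide or scan batch is given in the sources used here, so none was fitted.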

Additional observations from a re-analysis of the deposited data

How the results depend on the processing

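The log2 differences of *Ptgis*, *Ptges*, *Ptges2* and *Ptgs1* kept their sign under every alternative run, and those of *Ptges*, *Ptges2*, *Ptgs1* and *Ptgs2* never passed the threshold. With single arrays left out, *Ptges2* ran from 0.16 (without control 2) to 0.91 (without control 3), *Ptgs1* from -0.34 (without control 2) to -0.03 (without control 3) and *Ptges* from 0.26 to 0.46; without background correction *Ptges2* was 0.16, *Ptgs1* -0.11 and *Ptges* 0.13. *Ptgis* lost its call under median scaling (-0.76, adjusted p = 0.316) and lay between -0.94 and -0.86 with single arrays left out, with adjusted p by limma from 0.0421 to 0.0796 and 2 of 6 passing (without control 3 and without PTH 3). *Ptgs2* turned to -0.18 without control 3 and to -0.06 without PTH 2, in a range from -0.18 to 0.56 with single arrays left out. The number of members called was 1, and was 0 under median scaling and 0 to 1 with single arrays left out. The number of pathway genes called was 3, and was 1 under median scaling and 1 under the methods' t-test after adjustment, and 1 to 2 with single arrays left out; *Hpgd* and *Alox5ap* had adjusted p of 0.0657 and 0.054 by that t-test.

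Of all probes tested, 261 were called, against 723 without background correction, 502 with an offset of 50, 138 under median scaling, 422 with a detection p under 0.01 on all 6 arrays, 117 by the methods' t-test after adjustment (2257 before adjustment, at the threshold of the study's general statistics and not that of its array score), and 72 to 127 with single arrays left out. Of the calls 38.3% were higher with PTH, against 55.8% under median scaling. The cause of these changes was not tested, beyond the fewer arrays of the last.

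The samples shared replicate numbers, but deviations of same-numbered arrays correlated at 0.067, 0.064 and 0.273, so no pairing was assumed. With the replicate number as a block, *Ptgis* was at -0.89 with an adjusted p of 0.0608 by limma, 0 members, 1 pathway gene and 64 probes were called, and *Hpgd* and *Alox5ap* had adjusted p of 0.0533 and 0.094. With the block, the unadjusted p by limma was 0.0589 for *Ptges2* and 0.157 for *Ptgs2*, against 0.229 and 0.612 without it. After adjustment by limma these were 0.321 and 0.476 with the block, so neither passed. Among the 6 arrays, control 3 and PTH 3 alone correlated best with their own number. A block for slide could not be run.

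Signal over background was a limit: 8 of 15 member probes were not tested, among them every receptor probe.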
